A study of Arabidopsis thaliana with 6 samples.

Results

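A gene with a single intron gives the splicing machinery only 1 intron to remove, so that its intron reads, exon reads and spliced reads describe the same event. The introns described here are those of the Arabidopsis nuclear genes that have exactly 1 intron in the deposited intron tables, where each of the 6 libraries held at least 10 reads on the 2 exons together. Of 4557 nuclear single-intron genes, 2519 passed this minimum, and their introns are 2519 of the 120998 introns in the series. At the edge of the rule, the 32 introns whose lowest library held 10 exon reads had a median of 3 intron reads over the 6 libraries, and the 21 left out with 9 exon reads had a median of 4.

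The libraries came from whole light-grown seedlings of the Col-0 ecotype, kept in continuous light at 22 degrees. The labels give an age of 12 days, and the methods of the study give an older one. WT had 3 replicates, numbered 2, 4 and 5, and acinus-2 pinin-1, written acinus-2 pnn in the labels, also had 3, numbered 6, 7 and 12. This double mutant carried T-DNA insertions in both AtACINUS (AT4G39680) and AtPININ (AT1G15200), and no library came from a single mutant, so that the effects of the alleles cannot be told apart. The study calls the 3 of each genotype biological replicates. Nothing in the labels says that they were grown apart, and p-values measure the spread between these samples. All tissues of the seedling were pooled, and fewer cells of a type cannot be told apart from less RNA per cell.

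Introns are removed by the spliceosome, which recognizes the donor site at the 5′ end of the intron, a branch point and the acceptor site at its 3′ end. Intron retention, in which the intron stays in the mature RNA, is the most common form of alternative splicing in plants. Acinus and Pinin are known from animals as alternative partners of RNPS1 and SAP18 in the ASAP and PSAP complexes, which associate with the spliceosome and with the exon junction complex left behind by splicing. Introns near the 5′ end of plant genes are also known to raise the expression of some genes.

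The splice sites of the 6 introns whose ratio of intron reads differed between the genotypes are shown first, because the results on single introns turn on them. Each donor line gives the last 12 bases of the upstream exon and the first 12 bases of the intron, and each acceptor line the last 22 bases of the intron and the first 4 of the downstream exon. All are 5′ to 3′ on the strand of the gene, and capitals mark the first 2 and the last 2 bases of the intron. The sequences are those of the RefSeq assembly TAIR10.1.
AT4G23670 donor: actacacatatgGTatacatttag
AT4G23670 acceptor: ctaataaacacatgtgtgtaAGatgg
AT1G17490 donor: gctctctttctgGTaagacaaatt
AT1G17490 acceptor: ttggtttttgttgtttttttAGaggt
AT1G74088 donor: aagatcctacttGTaagttgtatt
AT1G74088 acceptor: ctcatcttcttatatttaatAGgaag
GSTU19 donor: attgacaagaagGTatcttatttc
GSTU19 acceptor: gttactctgtgcaatgtttcAGctgt
ECS1 donor: tccgtgaacttgGTgagtattttt
ECS1 acceptor: cgtttaattggtactggtgcAGgaga
PMSR3 donor: ttgaatcgccagGTatttttggat
PMSR3 acceptor: tttatgactttgctgtgatcAGggaa

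All 6 introns start with GT and end with AG, as did 2358 of the 2400 members that could be placed on TAIR10.1. A further 16 members start with GC and end with AG. The letters GTAAG at the start of the intron, searched on the strand of the gene, were found in 15.9% of the 2400 placed members and in 14.3% of the 1410 placed members that entered the test of the ratio.

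Among the 6 introns, 5 lie within the coding sequence, where the reading frame of the upstream exon can be read on into the intron. For 3 of them the first stop codon in that frame comes within 30 bases. These stretches run from the first base of the intron to the stop codon, which is in capitals.
AT1G17490 intron: gtaagacaaattctccgattTGA
ECS1 intron: gtgagtattttttattttgtctcTAA
GSTU19 intron: gtatcttatttcctttgtgcccttgatTGA

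In a retained intron of AT1G17490 the frame would thus close after 7 codons, behind 10 of the 77 residues of the protein. In ECS1 it would close after 8 codons, behind 35 of 95 residues, and in GSTU19 after 9 codons, behind 105 of 219 residues. Such stops are the rule among the members. Of 1879 coding introns with a known frame, 1771 (94.3%) hold a stop codon in frame, and the median number of codons before it was 11. Of the other 108 introns, 40 have a length divisible by 3 and would add residues without closing the frame. The median coding member followed 44.9% of the protein, with quartiles of 26.9% and 62.3%.

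Single introns were often long. Their median length was 209 bases, with quartiles of 96 and 426 and a range from 1 to 2838, and their median GC content was 31.6%. By the annotation, 1891 lie in the coding sequence, 356 in the 5′ untranslated region, 100 in the 3′ untranslated region and 53 in noncoding genes, and 119 could not be placed. The label did not hold for every member. In the reference, 1977 of the 2519 genes have exactly 1 intron in each transcript, while 411 have a transcript with more. A further limit is that 144 members had no spliced read in any library, of which 41 could not be placed and 33 lie over an exon of another gene. Over all members, 180 introns lie over an exon of another gene, where reads of either gene cannot be told apart.

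Each library had 18890178 to 27622690 gene reads, of which 1531583 to 2175464 lay on the exons, 16399 to 21228 on the introns and 137785 to 207543 on the junctions of the members. The insertions were checked by the reads on either side of them. The last 3 exons of AtACINUS held 853, 1300 and 1255 reads in WT and 0, 1 and 1 in the mutant. Its first 2 exons still held 314, 282 and 317 reads in the mutant, beside 334, 383 and 384 in WT. The first 8 exons of AtPININ held 704, 938 and 964 reads in WT and 380, 344 and 435 in the mutant, whereas its last 3 exons held 729, 897 and 905 in WT and 1826, 2221 and 2340 in the mutant. Photosynthetic and root markers were both present. The summed level of 4 photosynthetic genes was 20341 to 20708 counts per 1000000 reads (CPM) in WT and 16306 to 16919 in the mutant, and that of 4 root genes 1841 to 2128 and 1310 to 1452. Both flower markers stayed under 1 CPM, as did 1 of 2 seed markers, whose sum reached 8.40 in 1 mutant library.

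In WT, single introns held few reads beside their exons. The ratio used throughout is the number of intron reads per 100 exon reads of the same gene, where a spliced read, which touches both exons, counts once. It is not corrected for length, so that a short intron beside long exons has a low ratio at the same retention. Ratios of different introns therefore do not rank their retention. Over the 1488 members with at least 10 intron reads in the 6 libraries together, the median WT ratio was 1.53, with quartiles of 0.648 and 3.69. Of the 1031 members below this minimum, 157 had no intron read at all. The ratio was under 1 in 544 of the 1488 introns and over 10 in 122. Of these 122, 52 had under 10 spliced reads, 24 lie over an exon of another gene, and 58 had neither limit. The order of the introns was much alike in both genotypes, with a rank correlation of 0.917 between WT and mutant ratios over 1485 introns, given as a description, since the introns share libraries.

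The lowest ratios were sought among introns with a mean of at least 20 WT reads. With that minimum a low ratio needs many exon reads, so that only highly expressed genes could appear here. UBQ10, one of the polyubiquitin genes, has its intron in the 5′ untranslated region, at chr4:2718255-2718542. Its ratio was 0.112, 0.105 and 0.0963 in WT and 0.0702, 0.0553 and 0.0423 in the mutant. All mutant libraries were below all WT libraries, but the change did not pass the test (log2 change -0.90, SE 0.29, adjusted p = 0.137 by edgeR's quasi-likelihood test). LHCB2.1, a light-harvesting protein of photosystem II, had a ratio of 0.243 ± 0.025 in WT and 0.181 ± 0.0596 in the mutant (mean ± SD, n = 3). AT1G54410, a dehydrin, had 0.244 ± 0.0538 and 0.3496 ± 0.0189, with its intron in the 3′ untranslated region. Neither passed the test (adjusted p = 0.552 and 0.326 by edgeR's quasi-likelihood test).

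At the other end, a few introns held so many reads that they came near to their exons or exceeded them. AT1G29465, an uncharacterized gene, had 160, 159 and 150 intron reads per 100 exon reads in WT and 157, 136 and 179 in the mutant. AT7SL-1, annotated as an RNA of the signal recognition particle, had 144, 135 and 152 in WT and 140, 133 and 138 in the mutant, and none of its reads was spliced at the intron in the table. The other 3 of the 5 highest, AT2G05185, AT3G63445 and AT4G17098, had WT means of 99.1, 99.0 and 54.8. For AT1G29465, AT3G63445 and AT4G17098 the intron lies over exons of other genes. The genotypes overlapped in all 5 introns, and none passed the test.

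Intron reads were spread unevenly over the members. The 10 introns with most reads held 20.2% of the 114160 intron reads of all members, and the first pair held 9.17%. GRP7 and CCR1, which encode glycine-rich RNA-binding proteins, were 2 of the 3 with most reads. GRP7 had a ratio of 6.97, 7.99 and 7.89 in WT and 6.46, 6.09 and 6.45 in the mutant, and CCR1 had 10.6, 12.0 and 12.6 in WT and 9.25, 7.94 and 8.72 in the mutant. In both genes the mutant libraries lay below the WT libraries without passing the test (adjusted p = 0.532 and 0.249 by edgeR's quasi-likelihood test). AT1G51402 had a WT mean of 30.3 ± 14.2 and a mutant mean of 26.1 ± 3.01, over exons of other genes and without a spliced read.

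The question of the comparison was which single introns were retained more or less in the mutant. Only a few passed the test, and 1031 members had too few intron reads to enter it. In AT4G23670, a member of the polyketide cyclase and lipid transport superfamily, retention rose 2.3-fold, and in AT1G17490, annotated as an epidermal patterning factor-like protein, a family of secreted peptides that includes regulators of stomatal spacing, it rose 3.6-fold. Both passed every threshold of the call, namely an adjusted p under 0.05, a more than 2-fold change, an intron RPKM over 1 and an intron density of more than 5% of that of the gene in the genotype with more retention. No member was called as less retained. The 2 increased members made up 0.134% of the 1488 tested, against 0.866% of all 25626 introns tested in the series, and the share called as decreased was 0% against 0.0585%. At an adjusted p under 0.05 alone, 5 members (0.336%) passed, against 1.14% of all introns.

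The intron of AT4G23670 (chr4:12333115-12333469) held 224 ± 27.2 reads in WT and 319 ± 30.04 in the mutant (mean ± SD, n = 3). The exon reads went the other way, with 13117, 16351 and 18024 in WT and 9877, 9357 and 10021 in the mutant. Every mutant library thus had more intron reads than any WT library on fewer exon reads. The ratio was 1.68, 1.22 and 1.40 in WT and 3.05, 3.24 and 3.53 in the mutant (log2 change 1.20, SE 0.17, adjusted p = 6.87e-06 by edgeR's quasi-likelihood test). Against spliced reads the change was 1.36 (SE 0.20, adjusted p = 1.17e-05 by edgeR). The density of reads on the intron, relative to that on the gene, went from 3.603% to 8.18%.

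The intron of AT1G17490 (chr1:6008700-6008962) held 5, 4 and 4 reads in WT and 18, 18 and 27 in the mutant, on 161 to 195 and 211 to 286 exon reads. Its ratio was 3.11, 2.16 and 2.05 in WT and 8.14, 8.53 and 9.44 in the mutant, with no overlap (log2 change 1.83, SE 0.45, adjusted p = 0.0259 by edgeR's quasi-likelihood test). It rests on few reads. Without WT replicate 4 or 5 or mutant replicate 7 or 12 its adjusted p was 0.101, 0.115, 0.0734 and 0.119.

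The introns of 3 genes had less retention in the mutant by the adjusted p and stayed short of a call because their density on the gene was under 5% and, in ECS1, the change was also under 2-fold. GSTU19 encodes a glutathione transferase of the tau class, enzymes that join glutathione to other compounds. Its intron (chr1:29487004-29487504) held 72, 80 and 77 reads in WT and 29, 26 and 23 in the mutant, and the ratio was 1.03, 0.841 and 0.768 in WT and 0.472, 0.460 and 0.341 in the mutant (log2 change -1.04, SE 0.24, adjusted p = 0.0136 by edgeR's quasi-likelihood test). PMSR3 encodes a peptide methionine sulfoxide reductase, which restores oxidized methionine. Its intron (chr5:2363012-2363929) had a ratio of 2.51, 2.52 and 2.78 in WT and 1.27, 0.949 and 0.864 in the mutant (log2 change -1.35, SE 0.36, adjusted p = 0.0413 by edgeR). For ECS1 (chr1:11311406-11311530) the ratio was 0.823, 0.666 and 0.694 in WT and 0.479, 0.364 and 0.404 in the mutant (log2 change -0.80, SE 0.21, adjusted p = 0.0398 by edgeR). No mutant library overlapped a WT library in any of the 3. The adjusted p of GSTU19 was 0.0685, 0.0691 and 0.157 without WT replicate 2, mutant replicate 7 or mutant replicate 12, that of PMSR3 lay between 0.0605 and 0.215 whichever library was left out, and that of ECS1 between 0.0701 and 0.215 without WT replicate 2, 4 or 5 or mutant replicate 7 or 12.

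With spliced reads as the reference, 1357 members could be tested and 4 changed more than 2-fold at an adjusted p under 0.05. Of these, 3 were increased, which is 0.221% of the members against 1.09% of all introns in the series, and GSTU19 was decreased, 0.0737% against 0.15%. The increased ones were AT4G23670, AT1G17490 (log2 change 2.01, SE 0.51, adjusted p = 0.0258 by edgeR's quasi-likelihood test) and AT1G74088, a gene annotated as a galacturonosyltransferase, an enzyme group that builds pectin. The intron of AT1G74088 lies in the 5′ untranslated region at chr1:27861216-27862007. It held 0, 2 and 2 reads in WT and 14, 12 and 9 in the mutant, on 13, 5 and 5 spliced reads in WT and 4, 2 and 6 in the mutant. The log2 change against spliced reads was 3.89 (SE 0.98, adjusted p = 0.0246 by edgeR) and that against exon reads 2.36 (SE 0.67, adjusted p = 0.0653 by edgeR). The increased calls went from 3 to 1 without mutant replicate 6 or 7 and to 2 without any one of the other libraries. The number of decreased calls went from 1 to 0 without WT replicate 2, 4 or 5 or mutant replicate 7. It was 1 without mutant replicate 6 or 12, where the called intron need not be that of GSTU19. In both tests DESeq2 gave no member at an adjusted p under 0.05. It gave 14 introns of the whole series against 291 by edgeR for the exon reference, and 25 members at an unadjusted p under 0.05, 17 lower and 8 higher.

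**Figure D1:**
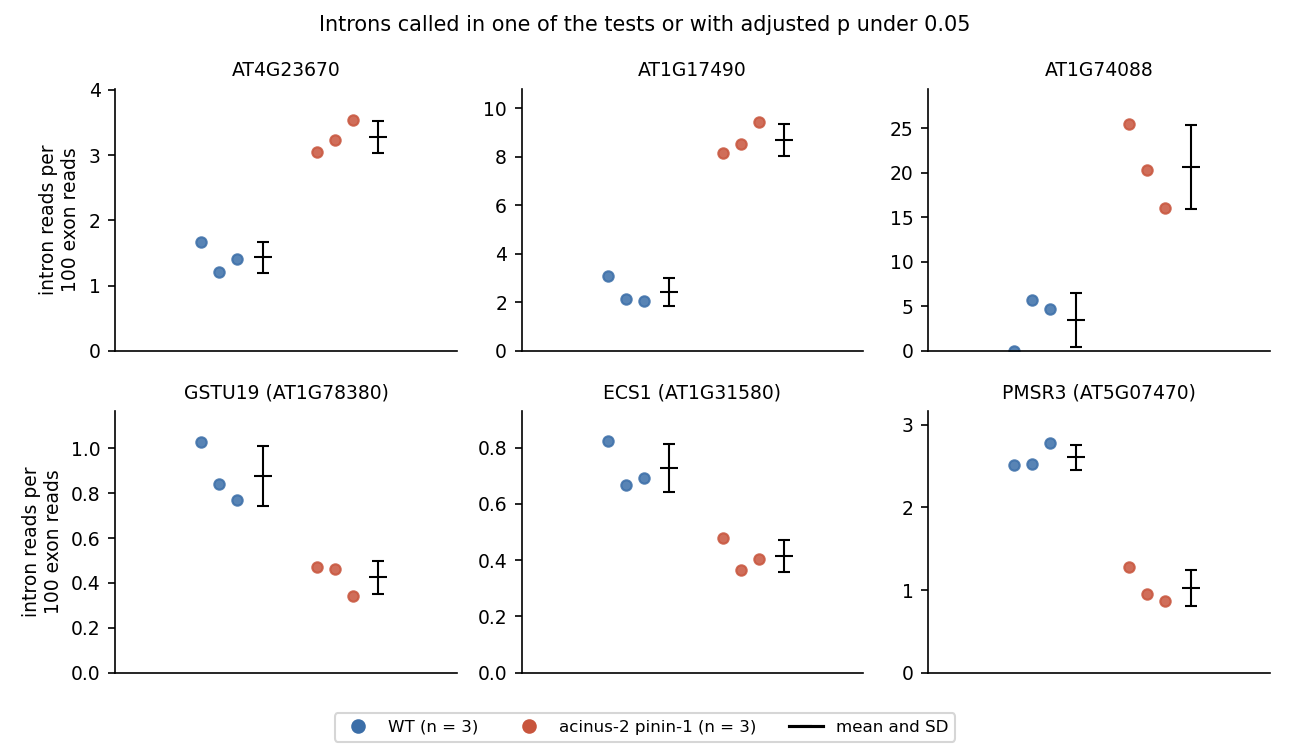
Intron reads per 100 exon reads in each library for the 6 introns that passed a test, with WT in blue, the acinus-2 pinin-1 mutant in red, and the mean and SD of 3 libraries in black. The 3 introns in the upper row are higher in every mutant library, up to 25.5 reads per 100 exon reads in AT1G74088, and the 3 in the lower row are lower in every mutant library.

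Beside these few, the tested members lay more often on the side of less retention in the mutant. Of the 1488 tested introns, 922 (62.0%) had a lower fitted ratio in the mutant and 566 a higher one, and the median log2 change was -0.20. Over all 25626 introns tested in the series 51.8% were lower and the median was -0.03. In genes with 2 introns the lower share was 59.6%, near that of the members. At an unadjusted p under 0.05, 115 members were lower, 7.73% against 4.9% of all introns, and 26 were higher, 1.75% against 6.23%. By the libraries alone, the genotypes did not overlap with the mutant lower in 156 members, 10.5% against 8% of all introns, and with the mutant higher in 58, 3.9% against 8.94%. Against spliced reads the median change over the members was -0.22. With TMM factors for each column, with spliced reads left in both exons or with DESeq2 it lay between -0.21 and -0.20. The minimum of 10 intron reads was set on the sum over both genotypes, and the 1031 members below it do not enter these values.

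**Figure D2:**
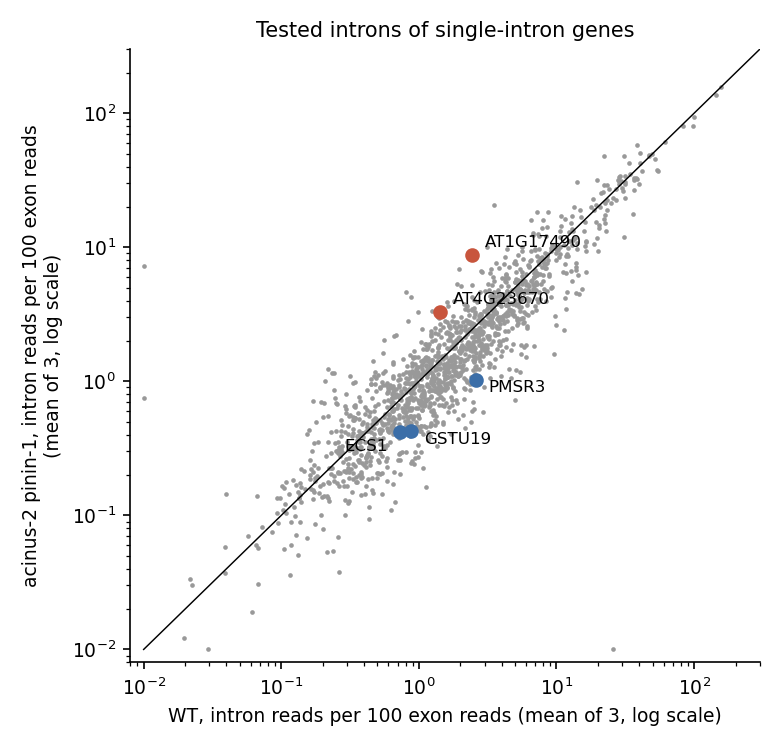
Mean ratio in WT against mean ratio in acinus-2 pinin-1 for the 1488 tested introns of single-intron genes, in intron reads per 100 exon reads on log scales, with means under 0.01 drawn at 0.01 and the line of equal ratios. AT4G23670 and AT1G17490, in red, stand above the line, and GSTU19, ECS1 and PMSR3, in blue, below it.

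The same direction was seen in the median of the members in each library. The median ratio was 1.43, 1.42 and 1.37 in WT and 1.26, 1.20 and 1.16 in the mutant, so that no mutant library reached a WT library. The mutant mean was 0.858 times the WT mean (p = 0.1, exact two-sided permutation test, the smallest p that 3 against 3 libraries can give). The median of intron reads per 100 spliced reads was 15.4, 15.2 and 14.8 in WT and 13.95, 13.5 and 12.5 in the mutant, again without overlap (p = 0.1, exact permutation test).

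When the reads of all 2519 members were summed, the genotypes overlapped for exon reads and not for spliced reads. Summed intron reads per 100 exon reads were 1.07, 0.975 and 0.976 in WT and 0.977, 0.966 and 0.944 in the mutant, where 1 mutant library exceeded both of the lower WT libraries (0.956-fold, p = 0.3, exact permutation test). Summed intron reads per 100 spliced reads were 11.9, 10.7 and 10.8 in WT and 10.2, 10.07 and 9.88 in the mutant (0.901-fold, p = 0.1, exact permutation test). Without the 10 introns with most reads the summed ratio to exon reads was 0.895, 0.810 and 0.808 in WT and 0.783, 0.790 and 0.762 in the mutant, which no longer overlap. The members also had more spliced reads per exon read in the mutant, 9.62, 9.59 and 9.55 per 100 against 8.996, 9.07 and 9.05 in WT, whereas the medians of the tested members overlapped, at 7.56, 7.51 and 7.47 against 7.24, 7.65 and 7.31.

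Genes with several introns differed from the members in the sums. Over the 88477 introns of nuclear genes with 2 or more introns that met the same minimum of exon reads, the summed ratio was 0.946, 0.950 and 0.974 in WT and 1.05, 1.05 and 1.04 in the mutant. The ratio of the members divided by that of these introns was 1.13, 1.03 and 1.002 in WT and 0.927, 0.923 and 0.910 in the mutant. The quotient was thus lower in every mutant library (0.874-fold, p = 0.1, exact permutation test), and the quotient of the medians was as well (0.856-fold, p = 0.1). The fold of the summed quotient was nearer to no change, at 0.921, without the 10 introns with most reads. With introns of at least 10 spliced reads it was 0.928.

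The lower median was not particular to genes with 1 intron. The 2049 tested introns of genes with exactly 2 introns had a median ratio of 1.52, 1.60 and 1.52 in WT and 1.28, 1.30 and 1.28 in the mutant. Divided by these, the medians of the members overlapped between the genotypes, with 0.941, 0.891 and 0.900 in WT and 0.986, 0.923 and 0.904 in the mutant (1.03-fold, p = 0.5, exact permutation test). In the sums, by contrast, genes with 2 introns were higher in the mutant, with 1.23, 1.26 and 1.22 against 0.906, 0.903 and 0.882 in WT. Only 3 of the 2049 tested introns were called as increased. The sum was not repeated without the introns with most reads, so that it may rest on few introns.

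**Figure D3:**
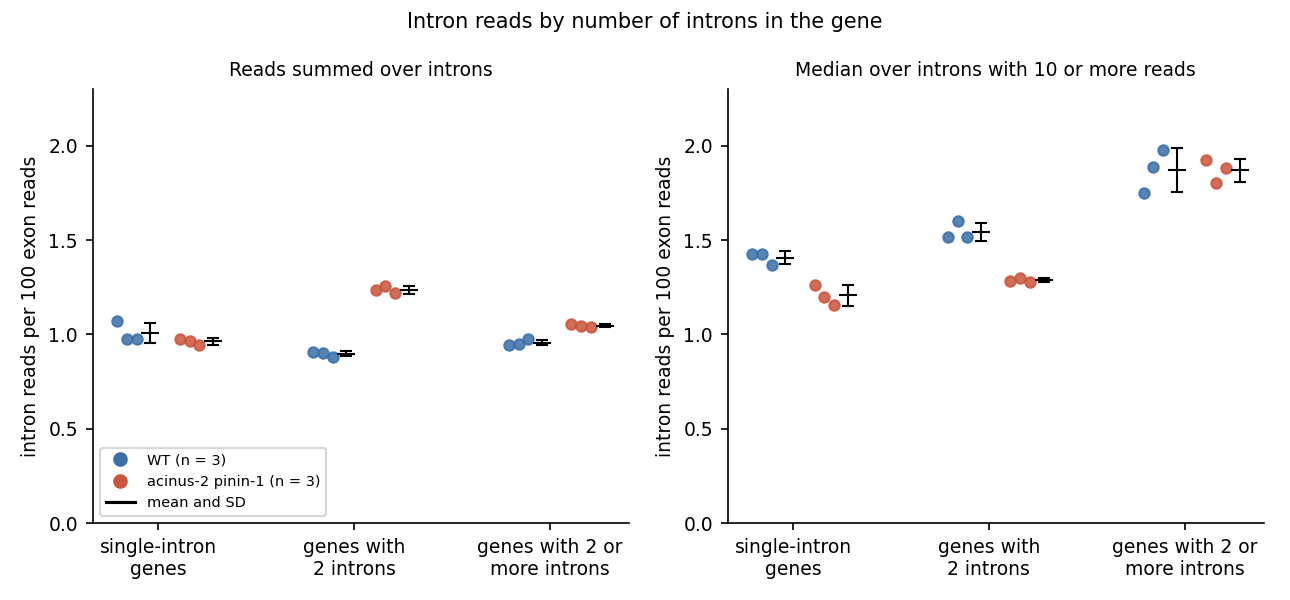
Intron reads per 100 exon reads in each library, summed over introns on the left and as the median over tested introns on the right, for single-intron genes, genes with 2 introns and all genes with 2 or more, with mean and SD of 3 libraries. The medians of single-intron genes lie between 1.37 and 1.43 in WT and between 1.16 and 1.26 in the mutant, while those of all genes with several introns overlap.

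Ordered by the number of introns in the gene, the members stood at the low end of a series. The median log2 change was -0.20 for genes with 1 intron, -0.18 with 2, -0.15 with 3 and -0.16 with 4 to 5. It was -0.05 with 6 to 10 introns, 0.17 with 11 to 20 and 0.34 with 21 or more. The share of tested introns called as increased went from 0.134% in single-intron genes to 3.41% in genes with 21 or more introns. These values are a description, since introns of a gene share their exon reads, and the median number of intron reads also differed, at 31 in single-intron genes and 17 in the last class.

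**Figure D4:**
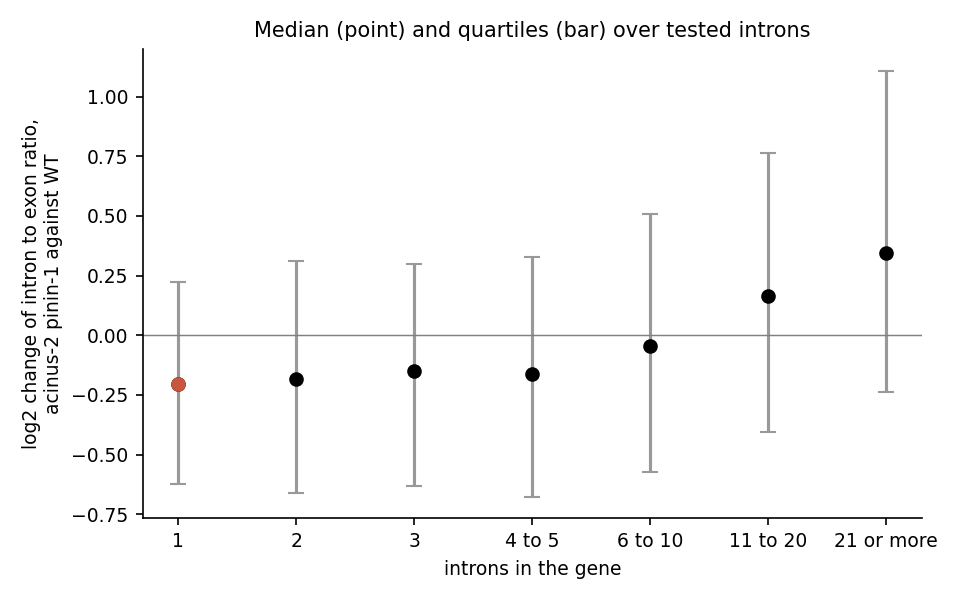
Median log2 change of the intron to exon ratio in acinus-2 pinin-1 against WT, with the quartiles as bars, over the tested introns of genes grouped by their number of introns. Single-intron genes, in red, have the lowest median at -0.20, and the median is above 0 only from 11 introns on.

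The members were also divided by the position of the intron within the gene. In the 356 members of the 5′ untranslated region the summed ratio was 0.986, 0.842 and 0.876 in WT and 0.863, 0.878 and 0.824 in the mutant, with overlap (p = 0.5, exact permutation test). In the 1891 coding members it was 1.076, 0.999 and 0.993 in WT and 0.990, 0.979 and 0.958 in the mutant, narrowly without overlap. The 100 members of the 3′ untranslated region had 0.815, 0.707 and 0.671 in WT and 0.616, 0.559 and 0.614 in the mutant (0.816-fold). The 53 noncoding members had much higher ratios, 6.66 ± 0.978 in WT and 6.29 ± 0.273 in the mutant (p = 0.8, exact permutation test). For the coding and the 3′ class the exact permutation p was 0.1, or 0.2 after adjustment over the 4 classes. The quotient of the 5′ class over the coding class was 0.880 ± 0.0367 in WT and 0.876 ± 0.0191 in the mutant (p = 0.9, exact permutation test), and no other pair of classes was compared by a test. The median log2 change over the tested introns was -0.13 in the 5′ class, -0.21 in the coding, -0.28 in the 3′ and -0.24 in the noncoding class.

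Longer members held more intron reads for the same exon reads, with a WT sum of 0.633 ± 0.0237 per 100 for the 686 introns under 100 bases and of 1.96 ± 0.102 for the 491 introns of 500 bases and over. For the 546 introns of 100 to under 200 bases the summed ratio was 0.749, 0.729 and 0.709 in WT and 0.645, 0.632 and 0.625 in the mutant (0.870-fold, p = 0.1 and 0.2 after adjustment over the 4 classes, exact permutation test). Introns of 500 bases and over had 2.07, 1.90 and 1.90 in WT and 1.86, 1.84 and 1.87 in the mutant, also without overlap (0.949-fold). In the sums of the other classes the genotypes overlapped. By the median log2 change over tested introns the order was another, with -0.15 under 100 bases, -0.17 from 100 to under 200, -0.24 from 200 to under 500 and -0.22 from 500 on. The sum of the class under 100 bases turned on AT1G13609, whose RNA rose in the mutant and whose intron had 1 spliced read over the 6 libraries. Without it the change of that class was 0.881-fold.

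The members were then grouped by words in the names of their gene products. In no group did an intron reach an adjusted p under 0.05 by edgeR's quasi-likelihood test. The counts at an unadjusted p under 0.05 stand beside 7.73% lower and 1.75% higher over all tested members. Over all introns of the series these shares were 4.9% and 6.23%. The counts of lower ratios stand beside 62.0% of all tested members. No group was tested against other introns. Among the members for the translation machinery, 42 of 53 introns of ribosomal protein genes were tested, 29 had a lower ratio in the mutant, 4 were lower and none higher at an unadjusted p under 0.05, and the median log2 change was -0.26. Of 14 members for translation factors, 11 were tested and 6 were lower, with 1 lower at an unadjusted p under 0.05. EMB2296 and AT2G41840, which encode ribosomal proteins of the large and the small subunit, had ratios of 0.0576 ± 0.0365 and 0.223 ± 0.0599 in WT and of 0.0697 ± 0.0142 and 0.175 ± 0.0492 in the mutant.

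Of 13 tested introns of photosynthesis genes, 11 were lower in the mutant, 5 of them at an unadjusted p under 0.05, and the median log2 change was -0.37. Over all tested members 7.73% were lower at that p and the median was -0.20, over all introns of the series 4.9% and -0.03, and the group as such was not tested. In PSAL, which encodes a subunit of photosystem I, the ratio was 0.335 ± 0.0639 in WT and 0.207 ± 0.0224 in the mutant (log2 change -0.67, adjusted p = 0.0749 by edgeR's quasi-likelihood test). LHCB6 and LHCB4.1, minor antenna proteins of photosystem II, went from 0.361 ± 0.0408 to 0.258 ± 0.0333 and from 0.294 ± 0.0250 to 0.211 ± 0.0483, with adjusted p of 0.243 and 0.259. The RNA of all 3 genes was lower as well, by -0.33, -0.48 and -0.41 on the log2 scale and thus under the fold threshold. The summed photosynthetic markers were lower in every mutant library too, and their part in this difference was not tested.

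Genes of protein turnover and of protein folding were counted next. Of 62 tested introns of genes for ubiquitin, F-box, RING or proteasome proteins, 41 were lower, with 2 lower and 2 higher at an unadjusted p under 0.05 and a median of -0.31. The proteasome subunit gene PAC1 and UBL5, a ubiquitin-like protein, went from 0.542 ± 0.308 to 0.276 ± 0.133 and from 1.498 ± 0.388 to 0.872 ± 0.129. Of 20 tested introns of chaperone genes, 7 were lower, 1 in each direction at an unadjusted p under 0.05, and the median was 0.05. HSC70-1, a constitutive Hsp70 chaperone, had only 0.0197 ± 0.0101 intron reads per 100 exon reads in WT and 0.0122 ± 0.00302 in the mutant.

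Among regulators, 55 of 90 tested introns of transcription factor genes were lower, 2 lower and 1 higher at an unadjusted p under 0.05, with a median of -0.17. BBX14, BBX15 and COL4, zinc finger proteins of the B-box type, had WT ratios of 0.979 ± 0.217, 0.635 ± 0.0631 and 1.32 ± 0.236 and mutant ratios of 1.27 ± 0.438, 0.471 ± 0.112 and 1.27 ± 0.250. Of 11 histone genes, 4 were lower, with a median of 0.10, and none had an unadjusted p under 0.05. Of 17 tested members for RNA-binding and splicing proteins, 10 were lower, with a median of -0.08 and none under an unadjusted p of 0.05. YLS8, a component of the U5 snRNP, had 0.866 ± 0.193 in WT and 0.636 ± 0.166 in the mutant. Pentatricopeptide genes, whose products act on organelle RNA, had 3 of 10 introns lower and a median of 0.30.

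The remaining groups hold signalling, enzyme and transport genes. Kinase genes had 36 of 59 tested introns lower, with a median of -0.23 and 3 lower at an unadjusted p under 0.05, and GTPase genes 9 of 15, with a median of -0.15 and 1 such intron. RABA4a, a Rab GTPase of membrane traffic, went from 2.80 ± 0.340 to 1.56 ± 0.0923 (log2 change -0.84, adjusted p = 0.385 by edgeR's quasi-likelihood test). Genes for cytochrome P450 enzymes had 17 of 27 lower with a median of -0.15, those for glycosyltransferases 12 of 23 with -0.15, and cell wall genes 16 of 27 with -0.07. At an unadjusted p under 0.05 there were 1, 2 and 2 lower introns in these groups and 1 higher, in a glycosyltransferase gene. The 8 tested introns of lipid genes had a median of -0.72 with 6 lower, 2 of them at an unadjusted p under 0.05, and the 3 of aquaporin genes had 0.18 with none lower. In LP1, a lipid transfer protein, the ratio was 0.119 ± 0.0405 in WT and 0.0605 ± 0.0116 in the mutant (adjusted p = 0.345 by edgeR).

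The RNA level of the single-intron genes changed about as often as that of other genes. Of the 2519 genes, 119 (4.72%) were higher in the mutant at an adjusted p under 0.02 and more than 2-fold, against 4.29% of all 20962 genes tested, and 101 (4.01%) were lower, against 4.88%. The median log2 change over the members was 0.03. The 5 largest increases included 3 genes for the basic helix-loop-helix factors BHLH100, bHLH38 and bHLH39, which promote the uptake of iron when it is scarce.

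BHLH100 had 1.07, 1.65 and 1.04 CPM in WT and 22.7, 28.3 and 18.4 in the mutant (log2 change 4.18, SE 0.20, adjusted p = 1.81e-08 by edgeR's quasi-likelihood test). The log2 changes of bHLH38 and bHLH39 were 4.04 and 3.57. BG3, a beta-1,3-glucanase of the kind made in defence, went from 1.64 ± 0.578 to 16.8 ± 1.81 CPM. AT1G13609, a defensin-like gene with an intron of only 55 bases, went from 4.14 ± 1.083 to 30.9 ± 6.85, whereas its intron reads per 100 exon reads stayed at 31.5 ± 6.42 and 33.9 ± 1.28. Over the 6 libraries its intron had 1 spliced read beside 893 intron reads, so that splicing of the annotated intron was hardly seen.

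The largest decreases were those of CYP712A1, MLP328, CYP716A2, AT4G22214 and MLP329. CYP712A1, a cytochrome P450, had 12.7, 15.9 and 16.6 CPM in WT and 1.85, 1.15 and 1.28 in the mutant (log2 change -3.41, SE 0.16, adjusted p = 1.73e-08 by edgeR's quasi-likelihood test). MLP328, which belongs to the major latex protein-like family, had 149, 168 and 177 in WT and 18.9, 22.1 and 19.98 in the mutant (log2 change -3.02, SE 0.08). MLP329 fell by 2.41, CYP716A2 by 2.57 and the defensin-like gene AT4G22214 by 2.47 on the log2 scale. The introns of CYP712A1, CYP716A2 and AT4G22214 held no read in any library.

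**Figure D5:**
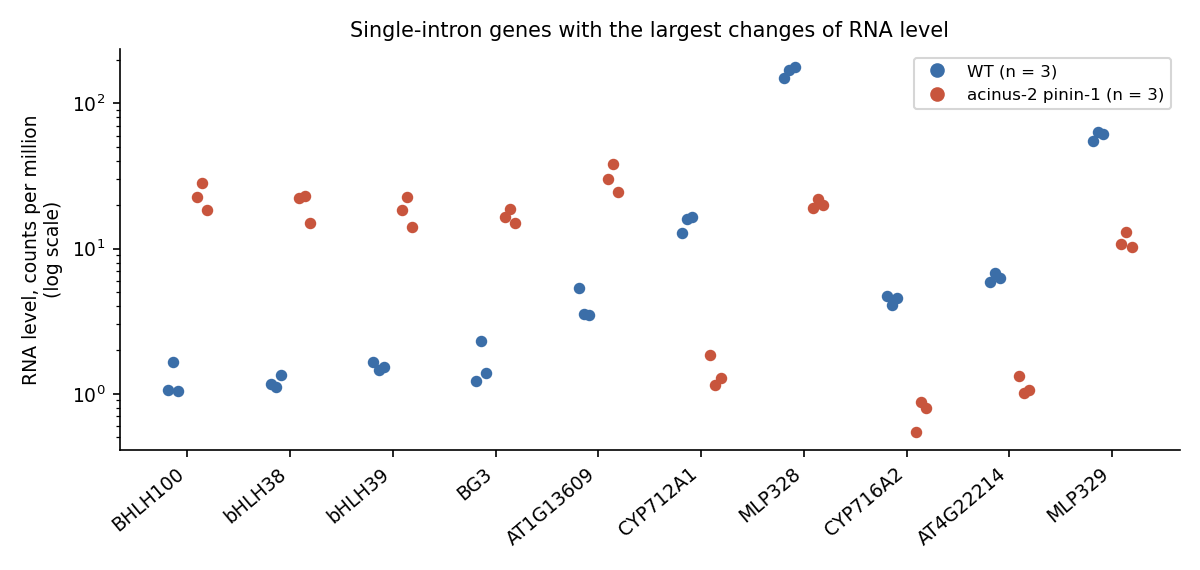
RNA level in CPM on a log scale in each of the 3 WT (blue) and 3 acinus-2 pinin-1 (red) libraries, for the single-intron genes with the 5 largest increases and the 5 largest decreases. In none of the 10 genes do the genotypes overlap, and MLP328 goes from 149 to 177 CPM in WT to 18.9 to 22.1 in the mutant.

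Of 61 cytochrome P450 genes among the members, 17 were called lower and 4 higher, where the members as a whole had 4.01% lower and 4.72% higher and all genes 4.88% and 4.29%. The groups were not tested against other genes. CYP81F4, an enzyme of indole glucosinolate metabolism, went from 277, 298 and 304 CPM to 87.1, 97.6 and 89.5 (log2 change -1.68, SE 0.06, adjusted p = 1.22e-09 by edgeR's quasi-likelihood test). CYP83A1 and CYP83B1, which act early in glucosinolate synthesis, were higher by 0.40 and 0.47 and under the fold threshold. Cell wall genes had 5 higher and 7 lower of 50, with a median log2 change of -0.43, and transcription factor genes 11 higher and 4 lower of 152. The summed root markers were also lower in every mutant library, at 1310 to 1452 CPM against 1841 to 2128, and their part in these counts was not tested.

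The other groups are given as counts only, beside 4.29% higher and 4.88% lower over all genes tested. They were not tested against other genes, and several hold few members. Ubiquitin and proteasome genes had 4 higher and none lower of 96, chaperone genes 4 and 2 of 41, kinase genes 4 and 2 of 126, glycosyltransferase genes 1 and 2 of 40, and lipid genes 2 and none of 11, with LP1 up by 1.11 on the log2 scale. One photosynthesis gene of 14 and 1 aquaporin gene of 4 were lower. Ribosomal protein, translation factor, histone, pentatricopeptide, RNA-binding and GTPase genes had none called by edgeR.

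Introns of genes with a changed RNA level were set beside the others. The tested introns of the 70 genes with more RNA had a median log2 change of the ratio of -0.15, those of the 26 genes with less RNA -0.20, and the other 1392 introns -0.21. None of the 5 introns with a changed ratio belonged to a gene whose RNA level was called. Among all members 4.72% were called higher and 4.01% lower, so that none of 5 is no result about these introns. The call also asks for a more than 2-fold change. Below it, the log2 change of RNA was 0.67 in ECS1, 0.45 in AT1G17490 and -0.46 in GSTU19. Their adjusted p was 6.21e-07, 0.00255 and 9.12e-06 by edgeR's quasi-likelihood test. The ratio and the RNA level share the exon reads.

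The choice of the donor and acceptor was compared last. In the members, 148 alternative donors or acceptors in 129 genes had at least 10 reads over the 6 libraries, of which 41 moved the donor, 96 the acceptor and 11 both. None met the rule, which asked for Fisher's exact test at p under 0.05 in all 9 pairs of libraries, a more than 2-fold change and a frequency over 5%, against 0.273% of all 3666 events of the series. By edgeR, 7 had an unadjusted p under 0.05 and the smallest adjusted p was 0.881. That was the event of SKIP (AT1G77180), a splicing factor, in which an alternative acceptor held 5, 5 and 4 reads in WT and 17, 15 and 11 in the mutant, 7.69% and 22.6% of the reads of both junctions. SKIP was named after its values were seen.

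Reads off the main junction were rare in the members, with 0.772%, 0.803% and 0.845% of all spliced reads in WT and 0.752%, 0.915% and 0.911% in the mutant, and the genotypes overlapped (p = 0.4, exact permutation test). In GRP7, an alternative donor that extends the first exon by 166 bases into the intron held 0, 106 and 93 reads in WT and 0, 116 and 192 in the mutant. In CCR1, one that extends it by 158 bases held 5.85% of the reads in WT and 6.68% in the mutant. The 0 in 1 library of each genotype was seen for GRP7 alone among the 21 events with at least 10 reads in each of the other 4 libraries.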

How the data were processed

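The introns, gene groups and named genes were chosen with earlier results of these data known. Libraries were prepared with NEBNext from RNA of WT and acinus-2 pinin-1 seedlings (3 each). For gene expression the authors mapped reads to TAIR10 with STAR. They deposited, for each library, expected counts of reads on genes, exons and introns, in which a read that counts for several genes is split, and counts of spliced reads per junction, made with the RACKJ package at its default settings. The reads' mapping that RACKJ took as input, the gene model and the version of the package are not given in the sources used here. The deposited RPKM values divide by length and by all mapped reads, and a deposited fraction marks intron reads assigned to more than 1 place, which 99 members had.

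Exon reads are the sum over both exons less the spliced reads, which count in both. Members needed 10 exon reads in each library and 10 intron reads over the 6 libraries to be tested. Expected counts were rounded. The change of the intron to exon or intron to spliced ratio with genotype was fitted in edgeR 4.0.16 (R 4.3.3) over 25626 and 24059 introns, with 1 term per library, the quasi-likelihood test and Benjamini-Hochberg adjustment. RNA levels were fitted over 20962 genes with TMM normalization. DESeq2 1.42.0 was an alternative. Sums and medians were compared with exact two-sided permutation tests over libraries, and junctions with Fisher's exact test, in Python 3.11.15 with scipy 1.17.1, and figures drawn with matplotlib 3.10.9. Tests across introns, genes and junctions were also run on simulated data, whose spread was set and not taken from these libraries.

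Introns were placed by locus and length on TAIR10.1, whose symbols and products were used. The tables number exons along the chromosome on both strands. Within a genotype, counts of the members differed more than by counting error, chi-square over degrees of freedom being 3.43 to 6.06. Named are the called introns, up to 5 in each direction by adjusted p among those with a mean of 20 reads, the 5 with most reads, the 5 highest and 3 lowest WT ratios among those with a mean of 20 WT reads, the 5 largest RNA changes in each direction among non-overlapping genes averaging 50 reads, and the 3 genes with most reads of each group. Columns with the authors' own comparisons were not used.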

Additional observations from a re-analysis of the deposited data

How the results depend on the processing

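No paired analysis was possible because the genotypes share no replicate number. With DESeq2 the members called as more retained went from 2 to 0, and with introns of at least 1 read to 1. Leaving out 1 library gave between 1 and 2. The members called as less retained went from 0 to 4 with at least 30 intron reads and to 3 by the adjusted p alone, and to between 0 and 1 without 1 library, where the 1 came without WT replicate 2 or mutant replicate 6. Against spliced reads the 3 increased members became 0 with DESeq2 and 1 with introns of at least 1 read, and between 1 and 2 without 1 library, and the 1 decreased member became 0 with DESeq2 or at least 1 read, 2 by the adjusted p alone, and 0 to 1 without 1 library. The fold of the members' intron to exon ratio was 0.956 as a sum and 0.858 as a median, that against introns of other genes was 0.874 and, with genes of exactly 2 introns, 0.694, and that of introns under 100 bases was 0.974 and, without AT1G13609, 0.881. The causes were not tested. The ratio of AT4G23670 kept its call in 11 of 12 alternatives and lost it with DESeq2. The introns of AT1G17490 and AT1G74088 held at most 27 and 14 reads in a library. Some alternatives were added after seeing the data. Keeping members with 1 intron in every reference transcript left the calls against exon reads at 2 increased and 0 decreased. With introns of at least 10 spliced reads the fold of the members' summed intron to exon ratio was 0.945. Their intron to spliced read ratio was then 0.892-fold, and the fold against introns of other genes 0.928.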
